A study of Mus musculus with 4 samples.

Results

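The neurons described here were GABAergic neurons of the mouse bed nucleus of the stria terminalis (BNST) whose captured RNA held at least 2 molecules of Cck, Greb1 and Frem3 together. They numbered 176 of 10200 cell barcodes, 1.73% of all barcodes and 7.85% of the 2241 GABAergic neurons. The BNST is a small forebrain region of the extended amygdala, and all cells came from tissue punches of wildtype C57BL/6J male mice. The tissue of 6 mice was pooled into each of 4 Drop-seq libraries, 24 mice in all, with no treatment and no second group, and ages were not given in the labels. Drop-seq captures a cell's messenger RNA on a barcoded bead and marks each captured molecule with a unique molecular identifier (UMI), so that a UMI count is a count of molecules.

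Barcodes were kept when at least 400 genes were detected and at most 10% of UMIs came from mitochondrial genes, which left 4239. A kept barcode was taken as a neuron when Snap25, Syt1, Stmn2, Snhg11 and Meg3 made up at least 0.6% of its UMIs (2489 barcodes), and as GABAergic when it held at least 1 UMI of Gad1, Gad2 or Slc32a1 and none of Slc17a6, the vesicular glutamate transporter of subcortical neurons. The remaining 2065 GABAergic neurons were the comparison. Cck, Greb1 and Frem3 had been picked from an earlier look at these same cells, so differences between the Cck/Greb1 neurons and the others describe the cells so chosen and are no independent support for a cell type. Each library is a pool of mice, and its 2 sums of counts, Cck/Greb1 neurons and other GABAergic neurons, were compared within it.

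Cck encodes cholecystokinin, a peptide released by neurons of cortex, amygdala and hypothalamus, and Cckar and Cckbr encode its receptors. Greb1 encodes a protein first described as an early target and partner of the estrogen receptor. In the male brain, aromatase, the product of Cyp19a1, converts testosterone to estradiol, which acts through the receptors encoded by Esr1 and Esr2, and the BNST is among the brain regions with aromatase and differs between the sexes. Frem3 encodes an extracellular matrix protein, and Pnoc, the gene whose neurons the series was made to study, encodes the precursor of nociceptin.

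The windows before the transcription starts of Cck and Greb1, which chose the cells, and of Cartpt, the peptide gene with the smallest adjusted p among those higher in them, are shown to place short elements known from such genes. They are the 250 bases before the start in RefSeq on GRCm38.p6, all on the minus strand, at chr9:121495695-121495944 for Cck, chr12:16800887-16801136 for Greb1, which has 2 starts in the table, and chr13:99900684-99900933 for Cartpt. Capitals mark the matches found: the E-box CACGTG, the cAMP response element TGACGTCA or its core TGACG, and TGACC, the core that estrogen response elements repeat.
Cck: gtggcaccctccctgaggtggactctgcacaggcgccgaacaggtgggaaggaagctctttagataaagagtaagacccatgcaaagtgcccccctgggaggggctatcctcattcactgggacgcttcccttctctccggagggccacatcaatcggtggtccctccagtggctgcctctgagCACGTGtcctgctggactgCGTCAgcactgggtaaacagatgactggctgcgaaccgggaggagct
Greb1: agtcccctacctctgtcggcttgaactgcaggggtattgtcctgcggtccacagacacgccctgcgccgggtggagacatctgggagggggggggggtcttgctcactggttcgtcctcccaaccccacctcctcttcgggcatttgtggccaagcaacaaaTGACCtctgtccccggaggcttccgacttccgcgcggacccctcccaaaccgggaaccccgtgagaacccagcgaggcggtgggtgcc
Cartpt: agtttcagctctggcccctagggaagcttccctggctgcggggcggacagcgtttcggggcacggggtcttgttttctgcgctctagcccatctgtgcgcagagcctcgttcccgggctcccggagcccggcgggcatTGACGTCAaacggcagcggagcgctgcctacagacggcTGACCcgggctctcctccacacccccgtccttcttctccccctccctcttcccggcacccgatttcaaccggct
The Cck window held CACGTG 66 bases before the start and, 47 bases before it, the core TGACG on the other strand, which therefore appears as its complement. The Greb1 window held TGACC 88 bases before the start. In the Cartpt window TGACGTCA stood 112 bases before the start and the estrogen core 74 bases before it. Of 32851 mouse promoter windows of the same length, searched on both strands, 6.02% held the E-box, 17.8% the core of the cAMP response element, 1.55% the whole element and 35.2% the estrogen core. Each whole element also counts as its core. Matches are descriptions of the letters in these windows and not sites of binding, and no binding was measured here.

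By position in GENCODE vM21 on GRCm38, Cck lies at chr9:121489824-121495694 on the minus strand, Greb1 at chr12:16670615-16800886 on the minus strand and Frem3 at chr8:80611080-80695356 on the plus strand. The Cartpt gene spans chr13:99898489-99901091 in that annotation, so its window lies within the annotated gene there. Counting used the 3' ends of transcripts, so a UMI says nothing of which start was used.

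The Cck/Greb1 neurons made up 10.5% of GABAergic neurons in library 1 (74 cells, exact Clopper-Pearson 95% interval 8.37 to 13.1), 5.18% in library 2 (24 cells, 3.35 to 7.61), 10.6% in library 3 (42 cells, 7.73 to 14.0) and 5.30% in library 4 (36 cells, 3.74 to 7.26). Libraries 1 and 3 held the larger shares and libraries 2 and 4 the smaller, with a mean of 7.90% ± 3.07 (SD, n = 4). All libraries were pools of the same kind of mouse, and intervals cover counting error only. A rule of 2 UMIs favours deep cells, and the median depth was 5929.5 UMIs in the Cck/Greb1 neurons against 3138 in the other GABAergic neurons. When each cell of at least 1000 UMIs was set to that depth, the shares became 4.29%, 1.92%, 5.10% and 2.40%, with the same libraries high and low. That left out 271 GABAergic neurons under 1000 UMIs, 6 of them Cck/Greb1 neurons.

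Cck alone brought in 75 of the 176 neurons, and 101 carried at least 1 UMI of Greb1 or Frem3. Among the latter, 44 held Cck and Greb1, 15 Cck and Frem3, 15 all 3 genes, 11 Greb1 alone, 9 Frem3 alone and 7 Greb1 with Frem3. A Cck UMI was found in 149 neurons (84.7%), a Greb1 UMI in 77 and a Frem3 UMI in 46. In library 1, Cck-only cells were the majority (40 of 74), and in libraries 2, 3 and 4 they numbered 8, 14 and 13.

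**Figure D1:**
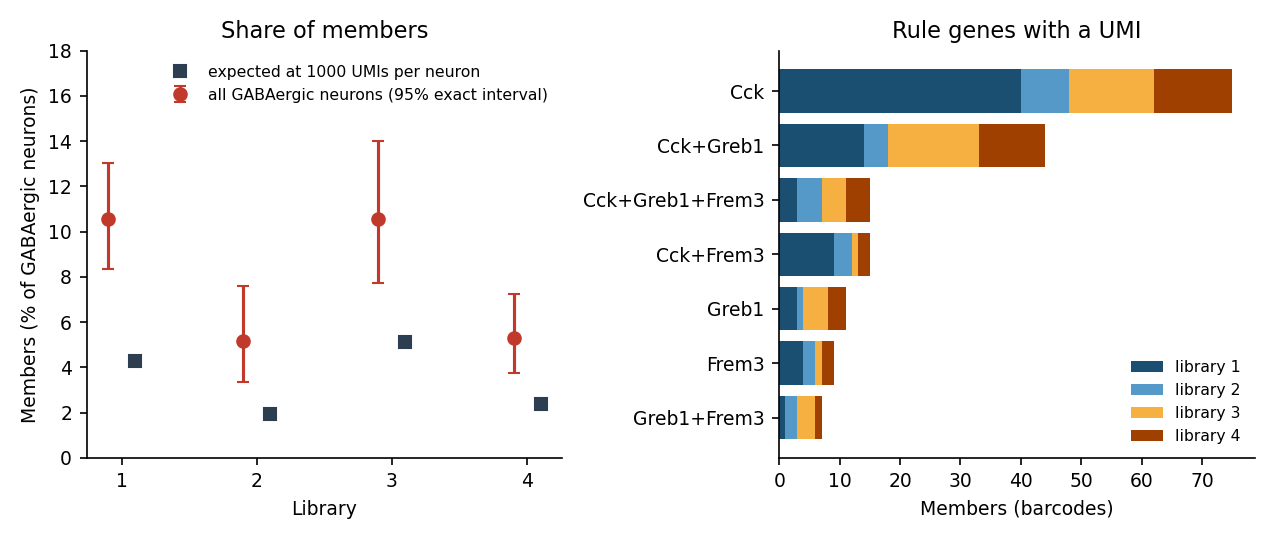
Share of GABAergic neurons that met the rule in each of the 4 libraries (percent, points with exact 95% intervals, and the share at 1000 UMIs), and how many of the 176 neurons each combination of Cck, Greb1 and Frem3 UMIs brought in (cells, by library). Libraries 1 and 3 lie near 10.5% and libraries 2 and 4 near 5.2%, and the 75 neurons with Cck alone are the largest set.

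The whole libraries held 2640399 to 5652342 UMIs, of which the Cck/Greb1 neurons held 154221 to 496150 and the other GABAergic neurons 1179876 to 3064783. No barcode sequence of a GABAergic neuron was shared between libraries, and Scrublet called 2 Cck/Greb1 neurons and 33 others doublets, which were kept in the sums. The median mitochondrial share of UMIs was 4.39% in the Cck/Greb1 neurons and 3.72% in the others, each a mean over the 4 libraries.

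The label was then set against genes outside the rule. The neuronal splicing factor gene Rbfox3 was at 287 ± 18.9 CPM (the gene's UMIs for every 1000000 UMIs of the class, mean ± SD over 4 libraries) in the Cck/Greb1 neurons and 296 ± 33.2 in the others. Of 7 glutamatergic marker genes outside the rule, 5 had no UMI, and the summed level ran from 0 to 12.6 CPM over libraries against 35.6 to 127 in the others. Beyond GABAergic neurons, 2 or more UMIs of the 3 genes were found in 8 of 131 neurons with Slc17a6 (6.11%, median 4671 UMIs), in 1 of 117 neurons with neither transmitter's genes (0.855%, 752 UMIs) and in 4 of 1750 other kept barcodes (0.229%, 1149 UMIs). Cck and its partners were thus also met in some neurons that the GABAergic rule left out.

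The genes that chose the cells are given as levels with no test. Cck was at 1358, 1388, 1610 and 1745 CPM in libraries 1 to 4 against a mean of 7.83 in the other GABAergic neurons. Greb1 was at 58.5, 90.8, 141 and 176 CPM against 4.28, and Frem3 at 50.4, 117, 41.4 and 107 against 3.68. Since the others were limited to 1 UMI of the 3 genes in a cell, these gaps come from the rule. Grik1, which encodes a kainate receptor subunit, and Cyp19a1 had been given beforehand as markers of these cells, so their levels are likewise given with no test. Grik1 was at 155, 207, 379 and 364 CPM against 56.1, 53.8, 44.9 and 56.3. Cyp19a1, at chr9:54165937-54268110 on the minus strand, was at 40.3, 84.3, 34.5 and 18.8 CPM against 4.24, 1.79, 2.54 and 1.11, and 46 of its UMIs were in 29 Cck/Greb1 neurons. For both markers all 4 libraries were higher in the Cck/Greb1 neurons, with no overlap.

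Which genes set the Cck/Greb1 neurons apart from the other GABAergic neurons was asked over all genes. Of 8914 genes tested beside the rule's own, 517 (5.80%) passed an adjusted p of 0.05 in edgeR's quasi-likelihood test with library as a block, 287 (3.22%) higher and 230 (2.58%) lower in the Cck/Greb1 neurons. Grik1 and Cyp19a1 were in the fit and are counted among the 287, though nothing is read from their calls. The median log2 difference over all genes tested was 0.0044. Without the block 160 genes were called, and DESeq2 called 214. For 587 genes (6.59%) the 4 libraries of one class did not overlap the 4 of the other. The gene lists below had been drawn up with earlier results of these cells known, so their counts are descriptions to be read against those shares.

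Among genes of steroid action, 5 of 11 tested were higher and none was lower, or 4 of 10 with Cyp19a1 set aside, with a list median log2 difference of 0.23 with it and 0.12 without. The estrogen receptor gene Esr2 (chr12:76120419-76177259, minus strand) was at 26.2, 25.9, 17.2 and 62.8 CPM in the 4 libraries of Cck/Greb1 neurons and at 0.979, 1.20, 1.70 and 0.557 in the others. The lowest Cck/Greb1 library was above the highest of the others, and the log2 difference was 4.81 (SE 0.57, adjusted p = 4.2e-12). This rested on few molecules, 32 UMIs in 26 of the 176 cells against 8 UMIs in all other GABAergic neurons, and was 4.22 without library 4.

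Esr1, the other nuclear estrogen receptor gene, was at 48.4, 38.9, 58.6 and 50.2 CPM against 20.2, 17.9, 25.4 and 23.4, without overlap and with a log2 difference of 1.22 (SE 0.28, adjusted p = 0.0011). Nrip1, which encodes a corepressor that binds ligand-bound nuclear receptors, was higher in all 4 libraries by 0.72 (SE 0.18, adjusted p = 0.0026). The glucocorticoid and mineralocorticoid receptor genes Nr3c1 and Nr3c2 had log2 differences of -0.18 and -0.45, the coactivator genes Ncoa1 and Ncoa2 0.23 and 0.02, and the 17-beta-hydroxysteroid dehydrogenase genes Hsd17b4 and Hsd17b12 -0.05 and -0.08, none past the threshold (adjusted p 0.58 to 0.99). Nrip1 was not called with DESeq2, without the library block or at a 5% mitochondrial limit. It was also lost when cells were thinned to 1000 UMIs before the rule was applied. Esr1 was not called at the 5% mitochondrial limit or when the rule used Greb1 and Frem3 alone at 2 UMIs.

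A list of genes known to differ between the sexes in limbic brain regions held 5 tested genes, and all 5 were higher, with a median log2 difference of 1.69. Gldn, which encodes the cell adhesion protein gliomedin and lies next to Cyp19a1 in the genome, was at 38.3, 71.3, 69.0 and 75.3 CPM against 7.83, 8.37, 6.78 and 11.1. The groups did not overlap, and the log2 difference was 2.82 (SE 0.33, adjusted p = 2.1e-12). Its gene body, chr9:54286486-54341786 on the plus strand, starts 18375 bases from the end of Cyp19a1 with no annotated gene between them. Moxd1, which encodes a monooxygenase-like protein, averaged 42.3 ± 12.2 CPM against 14.8 ± 8.48 (log2 difference 1.69, adjusted p = 3.7e-05), but 1.32 with an adjusted p of 0.059 without library 1. The insulin receptor substrate gene Irs4 was higher in 3 of 4 libraries (0.77, adjusted p = 0.0048) and was not called without library 2 (0.64), library 3 (0.72) or library 4 (0.54). The endopeptidase gene Ecel1 was higher by 0.48 in 3 of 4 libraries (adjusted p = 0.024). No female mice were sampled, so no sex difference was measured, and Brs3, Sytl4 and Pgr had too few counts to be tested.

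Of 11 peptide receptor genes tested, 4 were higher and none lower, with a median log2 difference of 0.65. The prolactin receptor gene Prlr (chr15:10177238-10349180, plus strand) was at 478, 674, 862 and 747 CPM against 159, 177, 215 and 188. Every library of Cck/Greb1 neurons was above every library of the others, with a log2 difference of 1.89 (SE 0.10, adjusted p = 3.8e-38). A Prlr UMI was seen in 130 of the 176 cells. Hcrtr1, which encodes an orexin receptor, was at 24.2, 77.8, 34.5 and 56.5 CPM against 5.22, 7.77, 5.09 and 5.57 (log2 difference 2.88, SE 0.39, adjusted p = 9.4e-10).

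Cckar, the gene of one receptor for the peptide that chose most of these cells, was at 18.1, 51.9, 51.7 and 18.8 CPM against 5.22, 4.78, 5.09 and 3.90, with no overlap (log2 difference 2.69, SE 0.43, adjusted p = 3.9e-07). It rested on 35 UMIs in the Cck/Greb1 neurons and 37 in the others. Oprl1, the nociceptin receptor gene, averaged 95.5 ± 39.1 CPM against 56.7 ± 9.0 (log2 difference 0.71, adjusted p = 0.012) and was not called without library 3 (0.64, adjusted p = 0.12) or library 4 (0.54, adjusted p = 0.22).

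**Figure D2:**
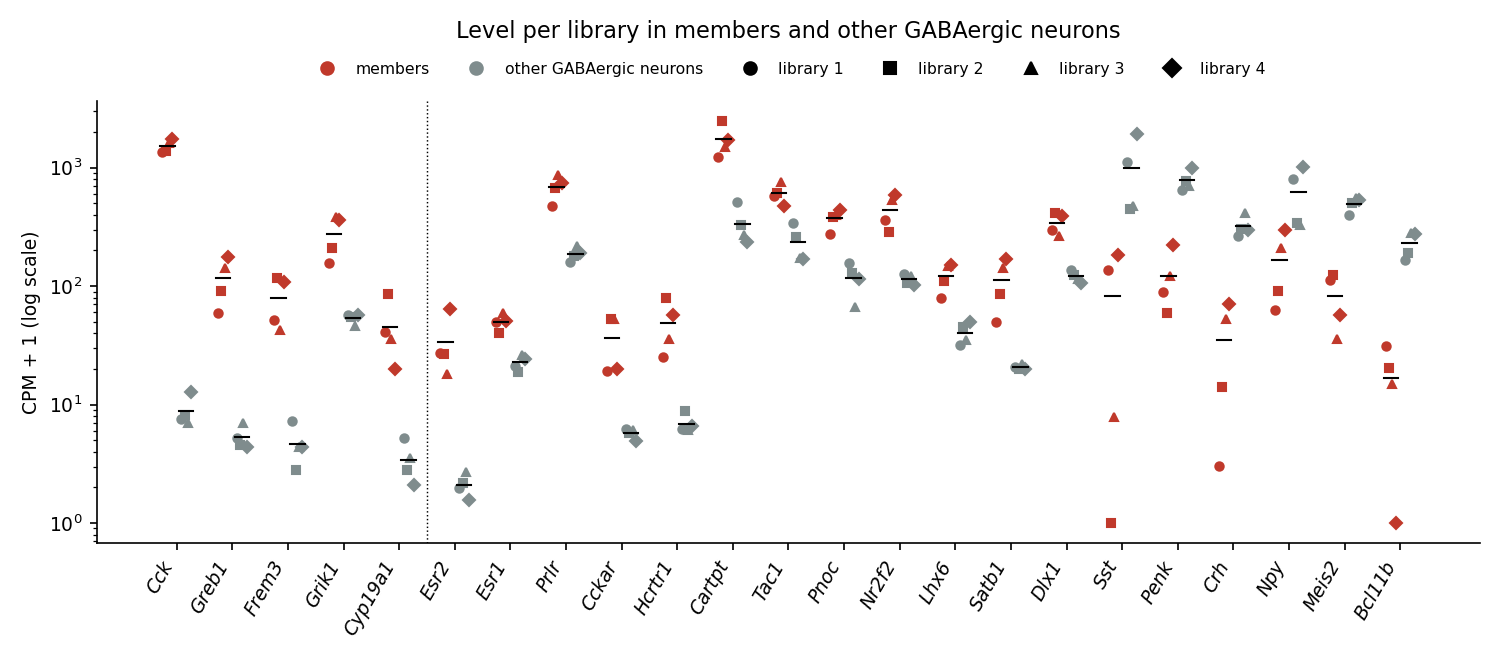
Levels of named genes in the 4 libraries (CPM, log axis), each library's Cck/Greb1 neurons and other GABAergic neurons as separate points. Esr2, Prlr, Cartpt, Pnoc and Nr2f2 lie higher in the Cck/Greb1 neurons in every library, and Sst, Penk and Meis2 lower.

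Neuropeptide genes divided in both directions: of 13 tested, 4 were higher and 7 lower, with a median log2 difference of -1.14. Cartpt, which encodes the CART peptide, was at 1236, 2483, 1504 and 1708 CPM against 514, 325, 269 and 236. No library overlapped, and the log2 difference was 2.35 (SE 0.10, adjusted p = 1.6e-48). Pnoc (chr14:65400673-65425472, minus strand) was at 274, 383, 397 and 439 CPM against 154, 128, 66.1 and 113, again without overlap (log2 difference 1.65, SE 0.13, adjusted p = 1.0e-21). That Pnoc is high in these cells was already known from the earlier look at them, as was that Esr2, Cyp19a1 and Gldn go with Pnoc. Tac1, the substance P precursor gene, was at 576, 616, 755 and 477 CPM against 340, 261, 172 and 168 (log2 difference 1.38, SE 0.11, adjusted p = 5.4e-23).

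The galanin gene Gal was called higher (0.72, adjusted p = 0.024) but was higher in only 2 of 4 libraries, at 329, 201, 58.6 and 615 CPM against 240, 513, 91.5 and 19.5. The call depended on single libraries, with -0.21 without library 4 and 1.38 without library 2. Tac1, Gal, Tac2, Nts and Pdyn are named here after their values were seen.

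Sst, the somatostatin gene and a marker of a large set of BNST neurons, was at 137, 0, 6.90 and 182 CPM in the Cck/Greb1 neurons and at 1105, 445, 472 and 1923 in the others, lower in every library without overlap (log2 difference -3.48, SE 0.14, adjusted p = 1.7e-50). The enkephalin precursor gene Penk was at 88.7, 58.4, 121 and 220 CPM against 650, 772, 700 and 992 (-2.67, SE 0.12, adjusted p = 3.1e-44). Crh, which encodes the stress peptide corticotropin-releasing hormone, was at 2.02, 13.0, 51.7 and 69.1 CPM against 266, 301, 413 and 298, a difference of -3.52 that was -2.89 without library 1. These 3 peptides of other BNST neurons were each lower in 4 of 4 libraries. Npy, the neuropeptide Y gene, averaged 164 ± 108 CPM against 622 ± 341 (-2.03, or -1.32 without library 1), Nts, the neurotensin gene, was lower by -1.14, the dynorphin precursor gene Pdyn by -1.81, and the neurokinin B gene Tac2 by -1.61, or -3.49 without library 1. Of 11 granin and prohormone-processing genes, Scg2 (1906 against 1225 CPM, log2 difference 0.67) and Chgb (759 against 540, 0.52) were higher and none was lower, with a median of -0.0077.

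Within the Cck/Greb1 neurons, Cck, Cartpt and Pnoc were spread over many cells. A Cartpt UMI was found in 104 of the 176 cells, a Pnoc UMI in 90 and a Tac1 UMI in 57. Of the 90 cells with Pnoc, 64 also held Cartpt and 75 Cck. The 3 cells with most held 14.8% of all Cartpt UMIs and 11.1% of all Pnoc UMIs. Other peptides came from a handful of cells: the top 3 cells held 66.3% of 309 Gal UMIs, 64.5% of 152 Npy UMIs, 62.9% of 170 Nts UMIs, 52.5% of 99 Sst UMIs and 95.8% of 168 Tac2 UMIs, of which 139 were in 1 cell. The class levels of those 5 genes are therefore levels of few cells. For other peptides too the top 3 cells held much: 62.1% of 29 Crh UMIs, 60% of 15 Pdyn UMIs and 40.7% of 123 Penk UMIs. For Tac1 they held 29.0% of 676 UMIs.

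Transcription factor genes known from the embryonic origin of forebrain GABAergic neurons were counted by origin, with no test between the lists. Of 11 genes of the lateral ganglionic eminence (LGE) and striatum, 10 were lower and none higher, with a median log2 difference of -1.69; the one not called was Foxp2 (-0.46). Of 4 genes of the caudal ganglionic eminence (CGE), 3 were higher (median 0.84), and of 6 of the medial ganglionic eminence (MGE), 3 were higher and 1 lower (median 0.38). The eminences are the embryonic zones that give rise to the striatum and to interneurons.

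Meis2, a homeobox gene of LGE-derived neurons, was at 111, 123, 34.5 and 56.5 CPM against 396, 502, 553 and 529, lower everywhere without overlap (log2 difference -2.47, SE 0.15, adjusted p = 2.4e-32). Bcl11b, the gene of the striatal factor CTIP2, was at 30.2, 19.5, 13.8 and 0 CPM against 166, 190, 282 and 274 (-3.40, or -4.41 without library 1). Zfhx3 (-2.13, or -3.07 without library 1) and Six3 (-2.33) were lower in the same way, as were Zfhx4 (-1.69), Isl1 (-1.68), Foxp1 (-1.38), Pbx3 (-1.38, or -3.04 without library 1) and Tshz1 (-1.31, and -0.93 with an adjusted p of 0.22 without library 3), which are named after their values were seen. Ebf1 had 1 UMI in the Cck/Greb1 neurons and 206 in the others.

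Nr2f2, the gene of the nuclear receptor COUP-TFII and a mark of CGE-derived and amygdalar neurons, was at 361, 285, 531 and 584 CPM against 125, 105, 121 and 101 (log2 difference 1.93, SE 0.12, adjusted p = 2.2e-30). All 4 libraries were above all 4 of the others. Its paralog Nr2f1 was higher by 0.68, and by 0.53 with an adjusted p of 0.17 without library 1, and Prox1 by 1.01, and by 0.80 with an adjusted p of 0.29 without library 3. Of the MGE genes, Lhx6, a LIM homeobox gene, was at 78.6, 110, 148 and 151 CPM against 30.7, 44.2, 33.9 and 49.0 (log2 difference 1.64, SE 0.20, adjusted p = 8.0e-12), and the chromatin organizer gene Satb1 at 48.4, 84.3, 141 and 170 CPM against 19.6, 19.1, 21.2 and 18.9 (2.33, SE 0.24, adjusted p = 1.5e-14). Both were higher in every library without overlap. Sox6 was higher by 1.14 and not called without library 1 (1.03, adjusted p = 0.26) or library 4 (0.91, adjusted p = 0.17), and Lhx8, a gene of cholinergic neurons, was lower by -2.12, or -3.25 without library 1.

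Of 14 other forebrain factors, 6 were higher and 2 lower (median 0.62). Id2, which encodes an inhibitor of basic helix-loop-helix factors, averaged 210 ± 41.7 CPM against 45.9 ± 15.1 (log2 difference 2.16), and the GABAergic lineage gene Dlx1 was at 294, 415, 262 and 389 CPM against 137, 123, 114 and 106 (1.46, SE 0.13, adjusted p = 8.4e-20). Dlx1 was not called when cells were thinned before the rule was applied. Dlx2 (1.46), Nfix (1.49) and Nfib (0.99) were higher too, while Dlx6 was lower (-1.28) and Zic1 had 5 UMIs against 527. Dlx2 and Nfib are named after their values were seen. As the strand of counting was not given, reads of opposite-strand overlapping genes cannot be told apart, which touches Nr2f2, Nr2f1, Nfix, Dlx6, Six3, Zfhx4, Zic1, Penk, Ppp1r1b, Nefl, Hpca, Kcnh7, Cacna2d3, Cdh13, Ncoa1 and Nr3c2.

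**Figure D3:**
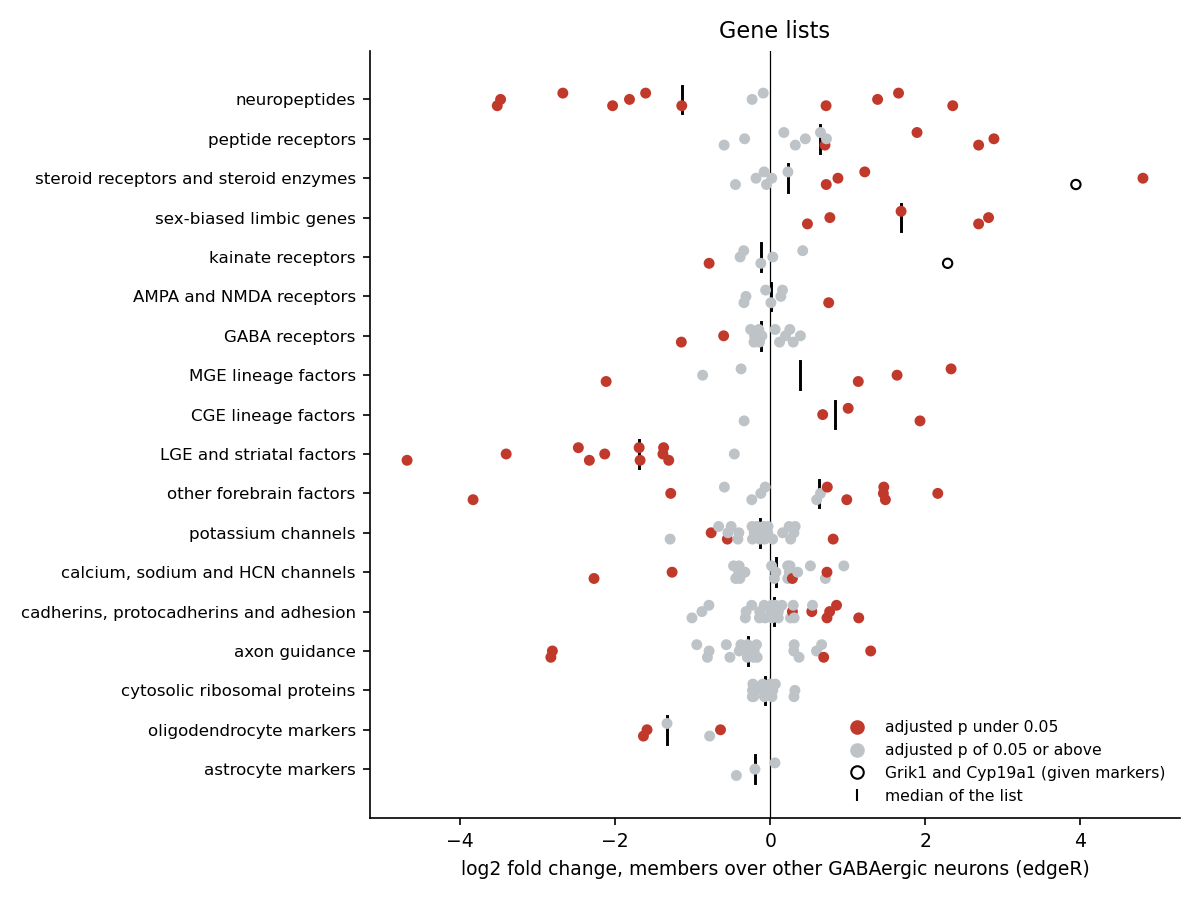
Log2 differences between Cck/Greb1 neurons and other GABAergic neurons for the tested genes of each list (points; red where the adjusted p was under 0.05, grey where it was not, hollow for Grik1 and Cyp19a1, which were given as markers of these cells). Points of LGE and striatal factors lie below 0 (median -1.69), and those of sex-biased limbic genes above 0 (median 1.69).

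Most genes of synaptic receptors and channels were not called, although the shares called were 14.3% of AMPA and NMDA receptor genes, 14.3% of GABA receptor genes, 12% of potassium channel genes and 19% of calcium, sodium and HCN channel genes, above the 5.80% of all genes. In the kainate receptor list, Neto1, the gene of an auxiliary subunit, was the single one of 6 genes other than Grik1 to be called (-0.79, adjusted p = 0.012, not called without library 2 or library 4, at -0.65 and -0.73). Grik2 (0.03), Grik3 (-0.34), Grik4 (-0.39), Grik5 (-0.12) and Neto2 (0.42) were not called. Of 7 AMPA and NMDA receptor genes, Gria3 was higher (497 against 295 CPM, 0.75), and 6 were not called. Gabrq (-1.15) and Gabra2 (-0.60, not called without library 1, 2 or 4, at -0.55, -0.52 and -0.52) were the 2 of 14 GABA receptor genes that were lower, and none of 4 metabotropic glutamate receptor genes was called.

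Of 25 potassium channel genes, Kcnh7 was higher (0.81, and 0.56 with an adjusted p of 0.26 without library 3), and Dpp10 (-0.76) and Kcnd2 (-0.55, and not called without library 1 or 3, at -0.54 and -0.56) were lower. Of 21 calcium, sodium and HCN channel genes, Cacna2d3 (0.73, and 0.50 with an adjusted p of 0.37 without library 3) and Scn2a1 (0.29, not called without library 1, 3 or 4, at 0.21, 0.31 and 0.22) were higher. Cacna2d2, the gene of a calcium channel auxiliary subunit, was lower at 107, 51.9, 51.7 and 43.9 CPM against 166, 178, 200 and 177 (-1.27, or -1.88 without library 1), and Cacng5 was lower on 4 UMIs (-2.27, not called without library 1 or 3, at -2.07 and -1.81, and -2.95 without library 4). Calcium-binding protein genes went both ways: Calb1, the calbindin gene, was at 707, 473, 559 and 578 CPM against 334, 286, 303 and 279 (log2 difference 0.99, SE 0.09, adjusted p = 7.6e-17), and Hpcal1 was higher by 0.87, while Hpca (-0.73), Calb2 (-0.82) and Necab1 (-0.81) were lower.

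Among 28 cadherin, protocadherin and adhesion genes 6 were higher and none lower, with a median of 0.05. Cdh4 was at 155, 175, 183 and 176 CPM against 63.0, 66.4, 97.5 and 99.7 (log2 difference 1.14, SE 0.15, adjusted p = 1.3e-09), and Pcdh17 averaged 634 ± 140 against 379 ± 26.4 (0.77). Of 23 axon guidance genes, the semaphorin co-receptor gene Nrp2 (125 against 52.3 CPM, 1.30) and the netrin receptor gene Unc5d (0.69) were higher, and Epha4 (-2.81) and Sema3a (-2.83) lower, with a median of -0.29. None of 6 immediate early genes and none of 14 ribosomal protein genes was called. For those 20 genes the median log2 differences were 0.05 and -0.06.

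The largest differences outside the rule's genes were also drawn from all genes tested, taking those with the same direction in 4 of 4 libraries and at least 40 UMIs. The 10 largest rises were Esr2, the given marker Cyp19a1, Nxph2, Hcrtr1, Gldn, Cckar, Fam159b, Unc5b, Tmem215 and Acacb. Nxph2, which encodes neurexophilin 2, a secreted ligand of neurexins, was at 80.6, 58.4, 58.6 and 25.1 CPM against 10.4, 3.59, 2.54 and 8.92 (log2 difference 3.11, SE 0.34, adjusted p = 2.4e-13). Tmem215, a transmembrane protein gene, was at 200, 201, 176 and 195 CPM against 38.8, 28.7, 44.9 and 37.9 (2.38, SE 0.17, adjusted p = 7.3e-26). Fam159b averaged 130 ± 72.1 CPM against 21.2 ± 6.87 (2.40, or 2.99 without library 1), the netrin receptor gene Unc5b 23.2 ± 6.72 against 4.60 ± 3.19, and Acacb, an acetyl-CoA carboxylase gene, 18.5 ± 7.01 against 3.97 ± 1.36. Levels of these 5 genes did not overlap between the classes.

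The 10 largest falls were genes almost absent from the Cck/Greb1 neurons. Prkcd, the protein kinase C delta gene that marks a population of the central extended amygdala, had 0 UMIs against 252, at least 12.0-fold lower when 3 UMIs over all 4 libraries are taken as the limit. The ratio of the others to the Cck/Greb1 neurons was 34.1 for Slc17a8, the third vesicular glutamate transporter gene (2 UMIs against 478, 95% counting interval 9.38 to 282.2), 33.9 for Igfbp4 (2 against 475, 9.32 to 280.4) and 29.4 for Ebf1 (1 against 206, 5.21 to 1166). It was 26.8 for Crabp1, a retinoic acid binding protein gene (1 against 188, 4.75 to 1064), 19.0 for Pou3f1 (2 against 266, 5.20 to 157.4), 16.8 for Serpinb1b (1 against 118, 2.96 to 670.1) and 13.9 for Stk32a (2 against 195, 3.80 to 115.6). Such ratios have wide intervals because 1 or 2 molecules set them, and the intervals cover counting error only. Leaving out 1 library moved the fitted folds of all 7 genes with such ratios by more than 1.5 times, and likewise those of Ppp1r1b and Zic1. The fitted log2 difference of Slc17a8 was -5.01, -9.33 without library 1 and -4.16 without library 3, and that of Igfbp4 -5.12 and -5.91 without library 4. Ebf1 was at -4.68 and -7.28 without library 1, Crabp1 at -4.53, -3.94 without library 1 and -7.71 without library 4, and Pou3f1 at -4.09 and -4.68 without library 4. Stk32a was at -3.66, -2.93 without library 1 and -4.41 without library 4. Serpinb1b was at -3.90 and -7.18 without library 4, and its call was lost without library 1 (-3.08, adjusted p = 0.091). Ppp1r1b, the DARPP-32 gene of striatal projection neurons, was at 12.1, 0, 3.45 and 0 CPM against 84.2, 65.2, 105 and 149 (-3.88, or -5.86 without library 1). Zic1 was at 10.1, 0, 0 and 0 CPM against 39.5, 56.2, 101 and 108 (-3.83, or -9.31 without library 1 and -3.15 without library 3).

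Markers of other cell types moved with these differences in several lists. Of 7 striatal spiny neuron markers all were seen, 3 of 4 tested were lower, Ppp1r1b and Crym (-3.56, or -4.46 without library 2) among them, and the sum ran from 31.4 to 131 CPM over the libraries of Cck/Greb1 neurons against 257 to 442. Of 8 markers of cortical-type Cck interneurons, summed at 385 to 676 CPM against 659 to 1296, Lamp5 was higher (0.78). Npy and Cnr1 (-1.05, lower in 3 of 4 libraries) were lower. Vip was at 0, 0, 69.0 and 12.6 CPM, from 22 UMIs in 2 cells, 20 of them in 1 cell. Pooled over libraries, Vip was at 20.0 CPM against 19.6 in the other GABAergic neurons. Oligodendrocyte markers summed to 227.6 to 326.5 CPM against 261 to 1586, all 8 seen. Mobp (log2 difference -1.59, not called without library 3, at -1.27) and Mbp (-0.64, not called without library 3 or 4, at -0.27 and -0.57) were lower. Their part in the differences above was not tested.

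Astrocyte markers summed to 486 to 701.4 CPM against 604 to 719 with Gfap at 0, and oligodendrocyte precursor markers to 0 to 26.2 against 3.59 to 50.9 with Cspg4 at 0. All 6 microglia markers were at 0 in the Cck/Greb1 neurons, against a sum of 0.653 to 5.93 in the others. Of 6 endothelial and mural markers 4 were at 0, Cldn5 and Flt1 among them, with a sum of 0 to 3.45 against 7.18 to 16.2. Ependymal and choroid markers summed to 10.3 to 51.9 against 26.4 to 40.1 with Ttr and Foxj1 at 0. Cholinergic markers summed to 45.4 to 72.4 against 65.9 to 103 with Chat and Slc5a7 at 0, and monoaminergic markers to 44.3 to 175 against 63.3 to 96.9 with Slc6a3, Slc6a4 and Tph2 at 0. Th, the tyrosine hydroxylase gene, had 10 UMIs in 3 cells. Chat and the dopamine and serotonin transporter genes were thus not seen in these cells.

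Because the rule favours deep cells, the comparison was repeated with other GABAergic neurons matched on depth. Of 4611 genes 215 (4.66%) were called, and the log2 differences were 2.45 for Cartpt, 1.69 for Prlr, 1.48 for Pnoc, 2.52 for Tac1, 1.80 for Nr2f2, 2.62 for Id2, 2.29 for Lhx6, 2.52 for Satb1 and 1.34 for Dlx1. Sst (-3.36), Penk (-2.80), Crh (-3.65) and Bcl11b (-3.25) were lower there as well. All 13 of these genes were past the threshold in that comparison. Of the genes named for the whole comparison, 11 lost their call there: Cacna2d3, Calb2, Dlx6os1, Dpp10, Gabra2, Irs4, Neto1, Nr2f1, Oprl1, Pcdh8 and Scn2a1. Esr2, Esr1, Cckar, Hcrtr1 and Gldn were not among the 4611 genes tested there. Of the 96 called genes named for this comparison, 44 were called in every setting that tested them. Not all were tested in each: Cartpt was tested in 20 settings and Esr2 in 16.

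The rule cuts at 2 UMIs, so the classes on both sides of the cut are given with no test. The 1941 GABAergic neurons with none of the 3 genes, the 124 with 1 UMI, the 46 with 2, the 52 with 3 to 5 and the 78 with 6 or more had median depths of 3091, 4089, 4961, 4850 and 6885.5 UMIs. Along these 5 steps Cartpt was at 358, 538, 1267, 1325 and 1797 CPM, Prlr at 169, 290.1, 513, 586 and 738, and Pnoc at 120, 196, 257, 309 and 406. Nr2f2 was at 105, 239, 330.4, 423 and 475 CPM and Esr2 at 0.980, 1.77, 7.77, 24.3 and 41.5. Levels of all 5 genes were higher at each step, so cells with a single UMI lay between those with none and those with 2. Libraries were pooled within each step, and the Esr2 levels rested on 7, 1, 2, 7 and 23 UMIs.

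Not every gene moved in steps. Tac1 was at 251, 333, 190.5, 444 and 901 CPM, lowest in the cells just inside the rule, and Cyp19a1 at 1.68, 15.9, 50.5, 20.8 and 48.7. Sst was at 1109, 384, 144, 114 and 52.3 CPM, Penk at 777, 594, 105, 278 and 28.9, and Meis2 at 493, 239, 132, 142 and 32.5. The lowest levels of these 3 genes were in the cells with 6 or more UMIs.

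**Figure D4:**
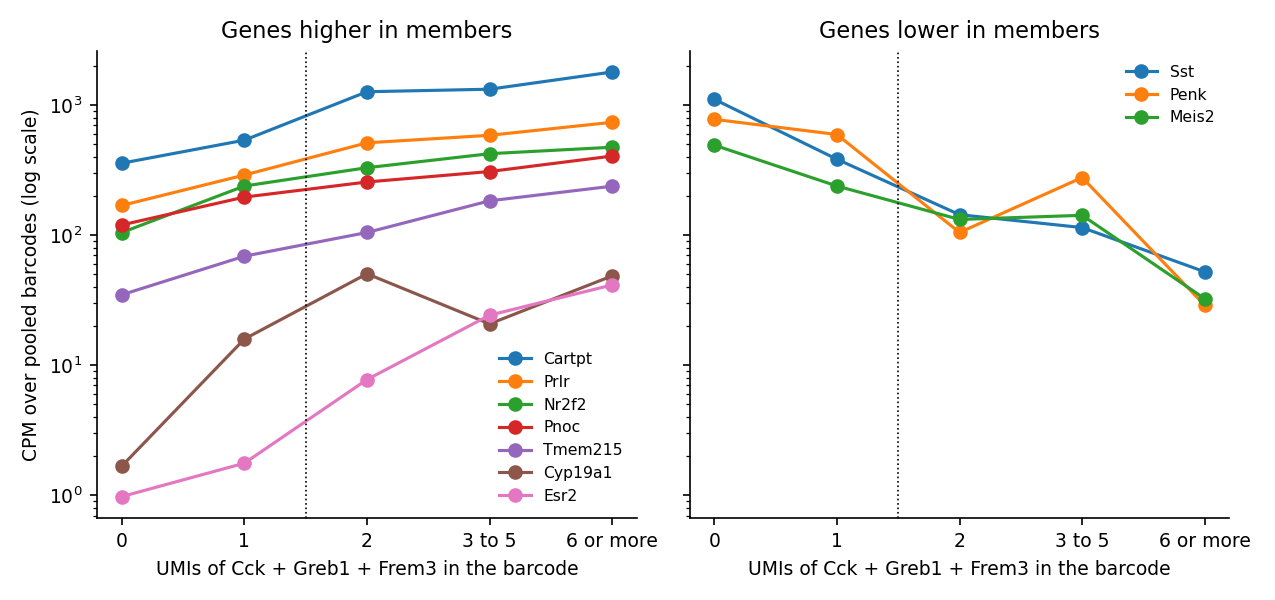
Levels of genes (CPM, log axis) in GABAergic neurons grouped by their summed UMIs of Cck, Greb1 and Frem3 (0, 1, 2, 3 to 5, and 6 or more), with the rule's limit between 1 and 2. Cartpt, Prlr, Pnoc and Nr2f2 are higher at each step, and Sst is lower at each step.

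Shares of cells with a UMI were set to 1000 UMIs per cell for comparison, as the mean chance that 1000 UMIs drawn from a cell include the gene. Prlr reached 42.7% of Cck/Greb1 neurons, 12.8% of other GABAergic neurons and 1.24% of non-neuronal barcodes, and Nr2f2 34.2%, 8.68% and 2.82%. Cartpt reached 42.7%, 11.7% and 3.57%, Pnoc 25.6%, 8.14% and 0.706%, and Esr2 2.90%, 0.128% and 0.0407%. The shares in Cck/Greb1 neurons were above those in non-neuronal barcodes for each of these 5 genes. How much of the latter is free RNA was not tested, since Nr2f2 and Prlr are also known from endothelial and choroid plexus cells. Without the fixed depth, UMIs of Prlr were in 73.9% of Cck/Greb1 neurons, of Nr2f2 in 77.3%, of Cartpt in 59.1%, of Pnoc in 51.1% and of Esr2 in 14.8%.

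Sst was found at that depth in 3.94% of Cck/Greb1 neurons against 9.26% of the others, Penk in 6.17% against 24.2% and Crh in 3.54% against 9.94%. Npy, at 5.88% against 6.82%, was higher in 2 of 4 libraries (exact sign-flip permutation p = 0.625, two-sided), although its level in the sums was lower in all 4. The other 8 genes named here at this depth differed in the same direction in all 4 libraries, for which the exact two-sided sign-flip permutation p is 0.13, the smallest that 4 libraries allow.

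How the 176 neurons vary among themselves was asked by the gene that brought them in. The 101 neurons with Greb1 or Frem3 (34, 16, 28 and 23 by library, median 6859 UMIs) were compared with the 75 that entered on Cck alone (median 4210 UMIs). Of 2721 genes tested 5 (0.184%) were called, all lower in the Greb1/Frem3 neurons, and the median difference was -0.0020. The count was 3 without library 1, 2 without library 4 and 1 without the library block. Prlr (0.59, adjusted p = 0.36), Cartpt (0.19), Pnoc (0.28), Nr2f2 (0.29), Dlx1 (0.60) and Lhx6 (0.82) were not called.

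Of the 5 calls Meis2 had the largest difference, at 0, 0, 0 and 17.6 CPM in the Greb1/Frem3 neurons against 254, 481, 129 and 154 in the Cck-only neurons. With 2 UMIs against 91, the ratio of Cck-only to Greb1/Frem3 neurons was 86.5 (95% counting interval 23.3 to 724.8, adjusted p = 2.5e-08), and the fitted log2 difference was -6.01, -5.28 without library 1 and -8.31 without library 4. Penk was at 21.5, 8.71, 70.6 and 149 CPM against 175, 203, 258 and 396, lower in every library without overlap (log2 difference -2.20, SE 0.33, adjusted p = 1.2e-04), but was not called without the library block (-2.08). Each of the remaining 3 calls was lost when single libraries were left out, although the difference itself hardly moved for Rab3c. Gal was at 7.16, 261, 70.6 and 105 CPM against 743, 25.3, 25.8 and 1891 (-2.71, adjusted p = 0.0075), and was not called without library 1 (-1.51) or library 4 (-1.94) and was -3.80 without library 2. Npy was at 68.0, 105, 28.2 and 96.7 CPM against 55.4, 50.7, 698 and 791 (-2.15, adjusted p = 0.017), and was not called without library 3 (-1.13) or library 4 (-1.78). Rab3c, a small GTPase gene of synaptic vesicles, averaged 359 against 665 CPM (-0.80, adjusted p = 0.018) and was not called without library 2 (-0.72), 3 (-0.82) or 4 (-0.70).

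**Figure D5:**
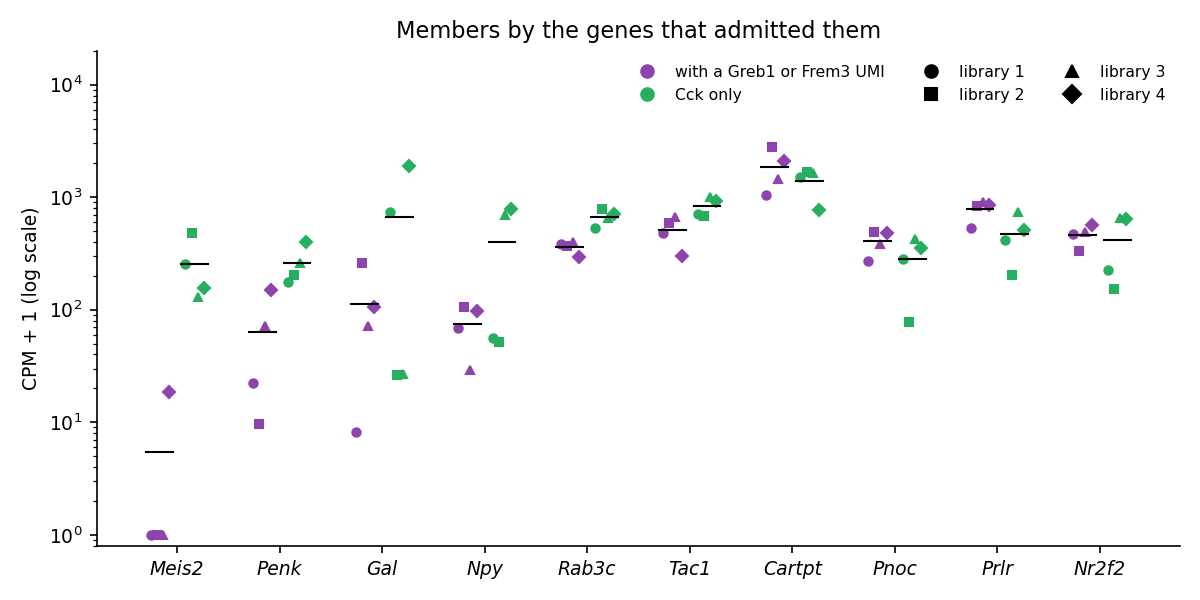
Levels in the 101 neurons with Greb1 or Frem3 and the 75 with Cck alone, by library (CPM, log axis). Meis2 and Penk lie lower in the Greb1/Frem3 neurons in all 4 libraries, while Gal and Npy cross between libraries.

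A Meis2 UMI was found in 20 of the 75 Cck-only neurons (12, 4, 2 and 2 by library) and in 1 of the 101 others. The split of the Cck-only neurons by Meis2 was made after its values were seen and is given with no test. The 20 with Meis2 had Penk at 636 CPM, Bcl11b at 166, Prlr at 46.1, Cartpt at 120, Nr2f2 at 111 and Pnoc at 120. The 55 without it had Penk at 55.4 CPM, Bcl11b at 11.1, Prlr at 639, Cartpt at 1989, Nr2f2 at 451 and Pnoc at 370. For these 6 genes, the Cck-only neurons without Meis2 lay on the side of the Greb1/Frem3 neurons and those with it on the side of the other GABAergic neurons. The 6 were chosen from more genes looked at, and others did not divide so. Cnr1 was at 36.8 CPM with Meis2 and 85.0 without, against 37.5 in Greb1/Frem3 neurons and 98.7 in other GABAergic neurons. Npy was at 111, 340, 66.6 and 679 CPM in the same order, and Calb2 at 147 with Meis2 and 148 without. In the 55 cells without Meis2, the top 3 cells held 91.3% of Cnr1 UMIs and 98.9% of Npy UMIs.

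The Cck/Greb1 neurons were also set beside 3 GABAergic classes drawn by rules of the same kind, each with at least 2 UMIs of a pair of genes. Cells meeting both rules were left out, and all 3 comparisons share the Cck/Greb1 sums, so they are not independent of each other. Against 213 Tac2/Ebf1 neurons, 325 of 4836 genes (6.72%) were called, 173 higher (3.58%) and 152 lower (3.14%). Against 151 Zic1/Zic4 neurons, 191 of 3871 (4.93%) were called, 112 higher (2.89%) and 79 lower (2.04%). Against 96 Lhx8/Rorb neurons, 588 of 3821 (15.4%) were called, 319 higher (8.35%) and 269 lower (7.04%). The first count was 199 without library 1 and 215 without library 2, the next 122 without library 2 and 106 without library 3, and the last 367 without library 2. Without the library block the counts were 144, 67 and 276. The median depths were 4673, 4031 and 5931.5 UMIs, so the last class was as deep as the Cck/Greb1 neurons.

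Of the 3 classes, Tac2/Ebf1 neurons gave the smallest difference in Prlr, though the comparisons were not tested against each other. Against them Esr1 differed by a log2 value of -0.0058 (adjusted p = 0.995), while Prlr (700 against 333 CPM, log2 difference 1.08, adjusted p = 2.0e-07), Pnoc (376 against 201, 0.76, adjusted p = 0.011) and Cartpt (2.94) were higher. Tac1 (0.67, adjusted p = 0.11, higher in 3 of 4 libraries) and Sst (-0.81, adjusted p = 0.12) were not called. Esr2 had 32 UMIs against 0, Cyp19a1 46 against 1 and Cckar 33 against 7. The 5 largest rises were Npy (152 UMIs against 1, fitted log2 difference 6.63, 8.22 without library 1 and 5.99 without library 4), Lhx6 (3.34), Id2 (3.25, or 4.03 without library 1), Tmem215 (3.01) and Fam159b (3.00). The 5 largest falls were Crh (-5.05), Sema3a (-3.80, or -4.55 without library 2), Pou3f2 (-3.80), Ppp1r1b (-3.75, or -5.51 without library 1) and Bcl11b (-3.63, or -4.80 without library 1).

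Against Zic1/Zic4 neurons the 5 largest rises were Cartpt (3.68), Nr2f2 (3.11), Tmem215 (3.07, or 3.76 without library 3), Tac1 (3.06, or 5.44 without library 1) and Rprm, a cell cycle arrest gene (442 against 57.4 CPM, 2.96). Prlr (1.56) and Pnoc (0.92, adjusted p = 6.6e-04) were higher as well, with 32 Esr2 UMIs against 0 and 35 Cckar UMIs against 0. The 5 largest falls were Lypd1 (-2.77, not called by DESeq2 and -3.63 without library 2), Mpped2 (-2.66), Epha4 (-2.51), Zfhx3 (-2.50, or -3.28 without library 1) and Zfhx4 (-2.41). Penk (0.16, adjusted p = 0.91) and Meis2 (-0.72, adjusted p = 0.12), which were lower against all other GABAergic neurons, were not called here, nor was Dlx1 (0.50, adjusted p = 0.096). Sst was lower (-1.75, adjusted p = 0.0074) in 3 of 4 libraries.

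Against Lhx8/Rorb neurons the 5 largest rises were Tac1 (618 against 25.9 CPM, log2 difference 4.76), Npy (120 UMIs against 2), Nr2f2 (453 against 14.1 CPM, 4.57, or 5.33 without library 1), Tmem215 (4.14) and the noncoding Sox2ot (3.82, 3.21 without library 2 and 4.51 without library 4). The 5 largest falls were Sema3a (-4.03), Crh (-4.00, -3.14 without library 1 and -4.71 without library 3), Mpped2 (-3.59), Epha4 (-3.39) and Zfhx4 (-3.03). Prlr (2.25), Pnoc (1.84) and Cartpt (2.43) were higher, with 32 Esr2 UMIs against 0 and 46 Cyp19a1 UMIs against 0. Cckar had 35 UMIs against 10 (35.6 against 20.5 CPM, and 51.7 against 48.2 in library 3), and Sst 99 against 9, both with too few counts to be tested. Lhx6 (0.42, adjusted p = 0.38), Penk (0.13, adjusted p = 0.82) and Meis2 (0.54, adjusted p = 0.30) were not called. Prlr, Pnoc, Cartpt and Nr2f2 were thus higher in the Cck/Greb1 neurons against each of the 3 classes, and Lhx6 against 2 of them.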

How the data were processed

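The deposited tables hold whole-number UMI counts per gene and cell barcode, 1 table for each of 4 Drop-seq libraries, made by the authors from reads per the labels' protocols. The submitters' processing notes name bcl2fastq 2.18.0.12, STAR 2.4.2a, Picard 2.2.4 and the build mm10 (GRCm38). The annotation, the counting strand and the rule that chose barcodes are not given in the sources used here. Of 20136 gene names, 18830 were found in GENCODE vM21 on GRCm38, which gave positions. Promoter windows came from RefSeq on GRCm38.p6.

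Counts of the cells of a class were added up within each library. The sums were compared by edgeR's quasi-likelihood test (version 4.0.16, R 4.3.3) after TMM normalisation and filterByExpr, with Benjamini-Hochberg adjustment over all genes tested and a threshold of 0.05. Library entered as a block because a library's 2 sums share their mice, beads and sequencing. Standard errors are the log2 difference over the square root of F. Genes used by the rule stayed in the fit for library sizes and are not counted as tested. The given markers Grik1 and Cyp19a1 are in the counts of genes tested and called, but no test of them is read. The cells, the 37 gene lists and the tests were chosen with earlier results of these data known. The rule for named genes took the 10 largest rises and 10 largest falls among called genes that changed the same way in 4 libraries and had at least 40 UMIs, up to 4 called genes per list by smallest p, all steroid receptor and kainate receptor genes tested, Pnoc, Cckar, Cckbr, Cnr1 and the given markers, and the 5 largest rises and falls in each further comparison. Cckbr had too few counts to be tested. Other genes are named as chosen after their values were seen.

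Levels are CPM, with 1 added before any log2 of a single library. Scrublet (scanpy 1.11.5, expected rate 0.05) marked doublets within each library (62 of 4239 kept barcodes, 1.46%), which were kept. Intervals at 95% and the limit of 3 counts cover counting error only. Replicates are pools of 1 kind of mouse. With library as a block, the class difference was tested within libraries, with dispersion estimated by sharing information across genes. A small SE or p-value therefore need not mean that the pools agreed for that gene. Gal had log2(CPM + 1) differences of 0.45, -0.63 and 4.91 in libraries 1, 3 and 4. Its adjusted p in edgeR's test without library 2 was 5.9e-18. Agreement between pools is read from the values of each library. On counts simulated from these sums with 200 genes changed 2-fold, edgeR recovered 70.0% among 8692 genes for the main comparison with 2.10% wrong calls, 63.5% of 2559 for Greb1/Frem3 against Cck-only neurons, and 76.5% of 4602, 80.5% of 3634 and 71.0% of 3607 for the Tac2/Ebf1, Zic1/Zic4 and Lhx8/Rorb classes. Wrong calls in the last 2 were 6.40% and 6.58%, above the nominal 5%. DESeq2 1.42.0 recovered 50.5%, 32.0%, 42.5%, 39.5% and 30.0%.

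Alternatives changed the low-count filter, normalisation, test, block, minimum genes, mitochondrial limit, neuron threshold, doublets, depth and the rule's genes and threshold, and dropped 1 library at a time. Scripts used Python 3.11.15, scipy 1.17.1, numpy 2.4.6, pandas 2.3.3 and matplotlib 3.10.9. Some genes of the lists enter the counts but are not reported here by name.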

Additional observations from a re-analysis of the deposited data

Results flagged for a closer look

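In 114 sets of 4 library values, the gap between 1 library and the next was set against the whole range with Dixon's critical value for 4 samples at 95%. Chance passes about 1 set in 20, or 5.7 of 114, and 4 passed. Each value is a log2(CPM + 1) difference, Cck/Greb1 neurons minus other GABAergic neurons. For the calcium channel subunit gene Cacna2d2, library 1 stood apart at -0.63. For the transcription factor gene Foxp1, library 4 stood apart at -1.90. The serpin gene Serpinb1b was at -1.09 in library 4, where its single UMI in the Cck/Greb1 neurons was found. Zfhx4 was at -6.52 in library 2, where the Cck/Greb1 neurons had no UMI of it.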

How the results depend on the processing

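Of the 517 genes called between Cck/Greb1 neurons and other GABAergic neurons, the count was 503 with no low-count filter (227 higher and 276 lower), 214 with DESeq2, 182 with a 5% mitochondrial limit, 215 with comparison cells matched on depth, 55 when cells were thinned to 1000 UMIs before the rule, 214 with Greb1 and Frem3 alone at 2 UMIs, and 363 to 446 when a library was left out. Matched and thinned sums held fewer genes to test (4611 and 3881). They also held fewer cells, with 176 comparison cells when matched and 70 Cck/Greb1 neurons when thinned. The cause of the lower counts was not tested for any setting. Without the replicate block the count was 160 there, 1 of 5 for Greb1/Frem3 against Cck-only neurons, 144 of 325 against Tac2/Ebf1, 67 of 191 against Zic1/Zic4 and 276 of 588 against Lhx8/Rorb neurons. DESeq2 gave 2, 124, 48 and 175 for those 4, and leaving out a library gave 2 to 7, 199 to 284, 106 to 165 and 367 to 508. With no low-count filter 13 were called for Greb1/Frem3 against Cck-only and 305 against Zic1/Zic4 neurons. The share of 7.90% was 3.43% at 1000 UMIs and 7.01% to 8.81% when a library was left out. Of the 96 named genes called in the first comparison, 44 were called in all settings that tested them, 32 were not called without the block, 30 after thinning, 30 at the 5% mitochondrial limit and 27 each with DESeq2 and with Greb1 and Frem3 alone. Signs turned for 3 called genes: Cdh4 (-0.20) and Cnr1 (0.64) after thinning, and Gal when a library was left out (-0.21 to 1.38) and with Greb1 and Frem3 alone (-1.35); the cause was not tested. They turned for 8 uncalled genes near 0: Grik2 (-0.026 with no filter, -7.3e-05 with library totals, -0.012 without doublets, -0.020 without library 3, -0.058 to 0.13 over the libraries left out, -0.82 thinned, -0.0090 at 3 UMIs, -0.090 with Greb1 and Frem3 alone and -0.057 with Cck alone), Ncoa2 (-0.037 with no filter, -0.014 with library totals, -0.018 with DESeq2, -0.12 without library 2, -0.26 to 0.27 over the libraries left out, -0.032 at a 1% neuron threshold, -0.019 matched and -0.17 with Cck alone), Grik5 (0.17 matched), Hsd17b12 (0.077 matched and 0.49 thinned), Hsd17b4 (0.11 without library 1 and 0.16 with Greb1 and Frem3 alone), Ncoa1 (-0.43 thinned and -0.094 with Greb1 and Frem3 alone), Neto2 (-0.16 thinned) and Nr3c1 (0.22 with Greb1 and Frem3 alone). Depth limits the rare transcripts, since 1 or 2 UMIs set the levels of several genes in the Cck/Greb1 sums.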
